A study of Homo sapiens with 6 samples.

Results

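The genes described here are 32 genes of the G2 and M phases, the stretch of the cell cycle in which a cell with copied chromosomes enters mitosis, pulls the copies apart and divides. They were chosen by symbol and not by a threshold on their values, though earlier results of these data were known. All 32 were found among the 53826 gene entries listed in the tables of 6 RNA-seq libraries. All 32 also passed the filter of the study, a level above 2 TPM in at least 1 of the 6 libraries, as did 13181 entries in total. TPM is a level corrected for transcript length and scaled to one total in every library.

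RNA had been taken from 2 lines derived from A549, a human lung adenocarcinoma cell line, with 3 libraries of each line numbered by experiment. A549-TIPARP cells carried the coding region of TIPARP, a mono-ADP-ribosyltransferase, and A549-GFP cells carried GFP, both brought in by a retroviral pMXs vector in stable lines with no further treatment named. Neither the labels nor the methods say whether a line was 1 clone, nor how dense the cultures were when RNA was taken. The comparison asks how the expression profile of A549 cells differed with TIPARP overexpression.

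Mitosis genes are silent or low for most of the cycle and are switched on together in G2, so that in a growing culture their mRNA level follows how many cells are on the way to division. Cyclin B with CDK1 drives entry into mitosis, the PLK1 and Aurora kinases build the spindle, BUB1, BUB1B and TTK hold back anaphase until every chromosome is attached, and the anaphase-promoting complex then destroys cyclin B and securin. Their promoters are known for a CCAAT box followed by a cell cycle homology region, or CHR, at which the DREAM complex holds the genes down in resting cells and MYBL2 and FOXM1 turn them on in dividing cells. In bulk RNA, fewer cells in G2 and M phase and less of these mRNAs per cell cannot be told apart.

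Both motifs were looked up in the promoters that RefSeq lists for GRCh38.p14 (hg38), from 250 bases before to 50 bases after a transcription start. The CHR was searched as TTTGAA or TTCGAA and the CCAAT box as CCAAT, each on both strands, so that a CHR on the other strand reads TTCAAA and a CCAAT box on the other strand reads ATTGG. Of the 32 genes, 26 had an entry and FOXM1, AURKA, TTK, BIRC5, UBE2C and TPX2 had none. The following promoters are printed because 4 of them show both motifs close to the start and CCNB1 shows CCAAT boxes alone, and because they lie wholly or nearly wholly outside exons: the 120 bases before the start of the cyclin genes CCNB2 and CCNB1, of the anaphase activator CDC20, of the spindle motor KIF11 and of MKI67. Each is printed 5′ to 3′ in the direction of its gene, with CHR and CCAAT letters in capitals.
CCNB2, plus strand, chr15:59105026-59105145: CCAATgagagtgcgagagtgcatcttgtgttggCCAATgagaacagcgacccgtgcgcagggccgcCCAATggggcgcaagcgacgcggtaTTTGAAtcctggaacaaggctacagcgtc
CDC20, plus strand, chr1:43358861-43358980: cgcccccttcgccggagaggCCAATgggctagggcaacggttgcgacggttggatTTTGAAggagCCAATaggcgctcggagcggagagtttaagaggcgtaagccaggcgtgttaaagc
KIF11, plus strand, chr10:92593010-92593129: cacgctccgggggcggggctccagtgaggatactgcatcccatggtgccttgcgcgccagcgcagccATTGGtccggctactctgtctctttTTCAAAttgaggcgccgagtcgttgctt
MKI67, minus strand, chr10:128126424-128126543: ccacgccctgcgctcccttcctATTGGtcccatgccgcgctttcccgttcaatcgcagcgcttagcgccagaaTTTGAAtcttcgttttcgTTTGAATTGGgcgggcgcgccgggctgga
CCNB1, plus strand, chr5:69167030-69167149: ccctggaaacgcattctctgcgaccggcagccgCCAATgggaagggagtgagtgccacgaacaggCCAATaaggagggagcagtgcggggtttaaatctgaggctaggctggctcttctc

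In CCNB2 the CHR began 29 bases before the start and the nearest CCAAT box 25 bases before the CHR. KIF11 held the same spacing of 25 bases with both motifs on the other strand, and its CHR began 28 bases before the start. In CDC20 the CHR stood between CCAAT boxes, the nearest of them on the side of the start, and another CHR lay upstream of the printed bases. The CHR of MKI67 nearest to its start overlaps a CCAAT box of the other strand by their shared letter A. CCNB1 held 2 CCAAT boxes in these bases and neither form of the CHR, which says only that these letters are not in this window. In GENCODE release 44 the CDC20 and MKI67 windows lie outside any gene and the KIF11 window lies inside the KIF11 gene but in no exon. The CCNB2 window overlaps an alternative CCNB2 exon by 20 bases and the CCNB1 window a CCNB1 exon by 15 bases.

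A CHR was found in 20 of the 26 promoters, or 76.9%, against 19.5% of the 27305 genes with a promoter entry. The 6 genes without it were CCNA2, CCNB1, KIF20A, PTTG1, AURKB and CENPE. A CCAAT box was found in 23 of the 26, or 88.5%, against 39.7% of all genes, and CENPE, NCAPG and BUB1B lacked it. Both motifs stood in 18 of the 26, or 69.2%, against 7.85% of all genes. These counts describe letters and not bound sites, and no binding was measured.

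**Figure D1:**
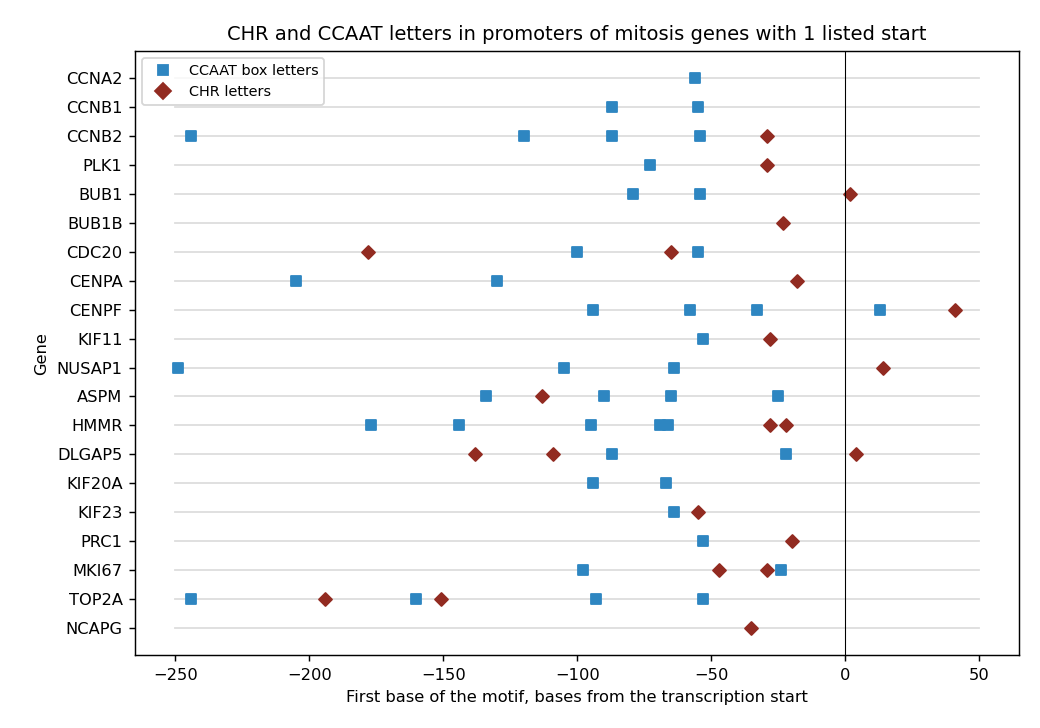
CHR letters (diamonds) and CCAAT letters (squares) in the promoters of the mitosis genes with 1 listed start and at least 1 match, against the distance of the motif's first base from the transcription start in bases. In CCNB2, KIF11, PLK1, HMMR and MKI67 a CHR lies 28 or 29 bases before the start with a CCAAT box further upstream, while CCNA2, CCNB1 and KIF20A show CCAAT boxes and no CHR.

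Facts of the libraries bear on every value below. Sequencing depth cannot be read from TPM and is unknown, and counting errors were not computed. TIPARP itself had 3.68 to 11.4 TPM in the A549-GFP libraries and 90.5 to 131 TPM in the A549-TIPARP libraries, so all libraries matched their labels. Of 5 epithelial markers all were above the lowest deposited value, the 3 endothelial markers and the leukocyte markers PTPRC and CD3E were at it in all 6 libraries, and so were CDKN2A and CDKN2B, which A549 is known to have lost. The third leukocyte marker, CD68, which epithelial cells can also express, was at 68.1 TPM in A549-GFP replicate 2 and at 25 to 36 TPM in the other 5. A pair of libraries stood apart in the mitosis genes, replicate 2 of A549-GFP cells and replicate 3 of A549-TIPARP cells. The summed epithelial markers, nearly all KRT8 and KRT18, were at 8340 TPM in A549-GFP replicate 2 and at 16500 to 21200 TPM in the other 5 libraries, while CDH1 was highest in it, at 142 TPM against 61.0 to 114, and EPCAM, at 166 TPM, lay within the range of the others. The summed mesenchymal markers, nearly all ACTA2, were at 35.8 TPM in it, at 38.8 TPM in A549-TIPARP replicate 3 and at 13.1 to 27.2 TPM elsewhere. The part of these differences in the results below was not tested.

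The 32 mitosis genes together took 3017 TPM in A549-GFP replicate 1, 260.5 in replicate 2 and 2404 in replicate 3. In A549-TIPARP cells they took 2337, 2757 and 871 TPM in the same order. The sum in A549-GFP replicate 2 was thus 0.0261% of its transcripts, against 0.302% and 0.24% in the other A549-GFP libraries. In A549-TIPARP cells it was 0.234%, 0.276% and 0.0871%. Each line had 1 library with low mitosis genes and 2 with high ones, and the spread within a line was wider than the distance between the lines.

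Between the lines no mitosis gene passed the test. With limma on log2(TPM + 1) over all 13181 genes and Benjamini-Hochberg adjustment, 0 of 32 had an adjusted p under 0.05, where 0.0152% of all genes did, and the lowest adjusted p was 0.994. None had an unadjusted p under 0.05 either, against 3.85% of all genes. None was past 2-fold, against 1.96% of all genes. The mean was higher in A549-TIPARP cells for 31 of the 32, against 39.6% of all genes, with ECT2 as the exception. The median difference was 0.51 on the log2(TPM + 1) scale over the 32 genes and -0.06 over all genes, and the median standard error was 0.86. The libraries of the lines overlapped for all 32 genes, where those of 8.91% of all genes did not.

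That direction turned when 1 library was left out. Without A549-GFP replicate 2, 0 of 32 genes were higher in A549-TIPARP cells, against 56.7% of all genes, and the median difference was -0.61, from -0.77 for AURKA to -0.28 for CDC25C. None passed an adjusted p of 0.05 in that limma fit, against 0.149% of all genes, nor an unadjusted one, against 10.7%. Without A549-TIPARP replicate 3, all 32 were higher, against 43.6% of all genes, and 23 were past 2-fold, against 2.65%, with a median of 1.03 beside -0.04 over all genes. Without both, a choice made after the values were seen, 5 of 32 were higher against 62.1% of all genes, the median was -0.06 and the median standard error 0.19. In that fit 0 of 32 had an adjusted p under 0.05, where 98 genes or 0.784% of all did, 0 of 32 had an unadjusted p under 0.05, against 9.61%, and the members lay between -0.31 for AURKA and 0.16 for CDC25C. Leaving out A549-GFP replicate 1 gave a median of 1.19 with 32 genes higher, against 40.5% of all genes, and 27 past 2-fold, against 3.63%. Leaving out A549-GFP replicate 3 gave 0.94 with 31 higher, against 31.7%, and 18 past 2-fold, against 3.53%. With A549-TIPARP replicate 1 or 2 left out the median was 0.33 or 0.21. The members' adjusted p in limma ran from 0.531 to 1 over all of these fits and the other settings tried.

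**Figure D2:**
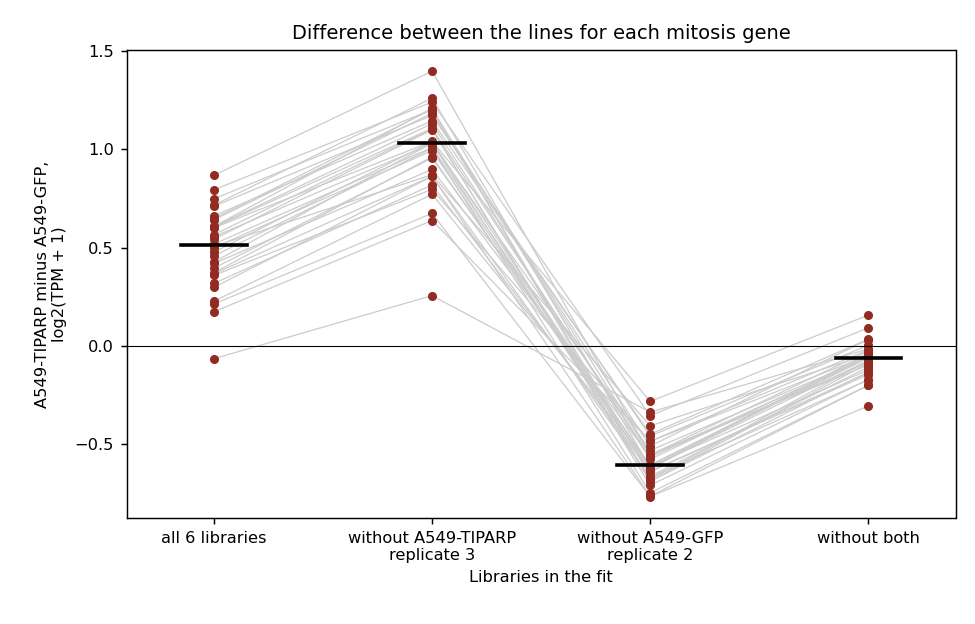
Difference of A549-TIPARP from A549-GFP cells on the log2(TPM + 1) scale for each of the 32 mitosis genes (points, joined by grey lines) with all 6 libraries and with 1 or both low libraries left out; black bars are medians. The medians are 0.51, 1.03, -0.61 and -0.06 from left to right, so the direction follows which library is in the fit.

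Within A549-GFP cells the spread was far wider. In A549-GFP replicate 2 all 32 were below the mean of the other A549-GFP libraries, with a median deviation of -3.33 on the log2(TPM + 1) scale, where the median of all genes was 0.34. More than 2-fold lower were 31 of the 32, against 4.04% of all genes, and more than 4-fold lower were 30, against 1.35%. None was more than 2-fold higher, against 12.6% of all genes. Of all 13181 genes, 0.326% lay at or below the median of the mitosis genes, and the lowest of all was AURKB. CDC25C and CENPE were listed at the lowest deposited value in this library, and without them the median of the other 30 genes was -3.36.

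Within A549-TIPARP cells the same genes were low in replicate 3, less far. All 32 were below the mean of the other A549-TIPARP libraries, with a median deviation of -1.51 against -0.05 for all genes. There 31 of 32 were more than 2-fold lower, against 2.22% of all genes, and 0 of 32 more than 4-fold lower, against 0.0152%. None was more than 2-fold higher, against 1.21%. Of all genes, 0.63% lay at or below the members' median. These deviations have no test, since each sets 1 library against 2. The lowest of the 6 libraries was A549-GFP replicate 2 for 31 of the 32 genes, against 13.1% of all genes, and next lowest for the same 31 came replicate 3 of A549-TIPARP cells, an order that 7.04% of all genes showed. ECT2 had the reverse order. A549-GFP replicate 1 was the highest of the 6 for 29 genes and A549-TIPARP replicate 2 for the other 3. The share of all genes with these highest libraries was not counted.

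**Figure D3:**
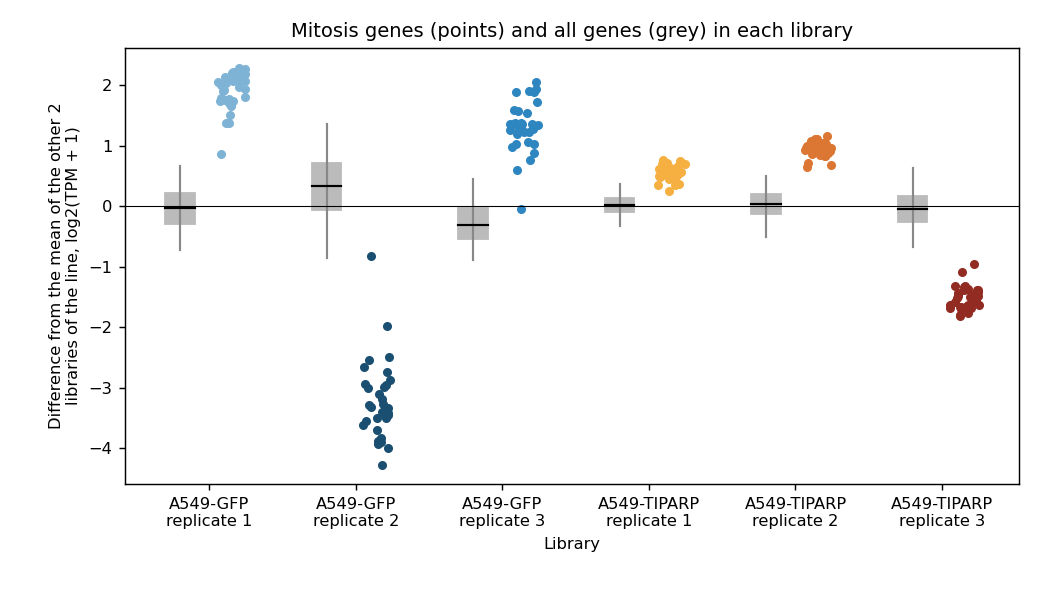
Deviation of each mitosis gene (points) from the mean of the other 2 libraries of its line, on the log2(TPM + 1) scale, beside all 13181 genes (grey: box from the 25th to the 75th percentile, black bar the median, line from the 5th to the 95th percentile). The mitosis genes of A549-GFP replicate 2 lie around -3.33 and those of A549-TIPARP replicate 3 around -1.51, below the grey boxes.

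Cyclins, CDK1 and their regulators came first in the path to mitosis. In what follows a gene's TPM is given for replicates 1, 2 and 3 in that order. CCNB1, the cyclin B that partners CDK1, was at 187, 14.1 and 157 TPM in A549-GFP cells and at 154, 191 and 65.0 TPM in A549-TIPARP cells. Replicate 2 of A549-GFP cells and replicate 3 of A549-TIPARP cells were low, the other 4 libraries lay close together, and the lines overlapped. The mean log2 TPM was 6.22 ± 2.08 (SD, n = 3) in A549-GFP cells and 6.96 ± 0.82 (SD, n = 3) in A549-TIPARP cells, a difference of 0.71 ± 0.88 (SE) on the log2(TPM + 1) scale. CDK1, the kinase itself, was at 109, 11.7 and 77.4 TPM in A549-GFP cells and at 75.3, 92.3 and 28.8 TPM in A549-TIPARP cells, with a difference of 0.32 ± 0.76 (SE). The low libraries were those of CCNB1, with a narrower gap: A549-GFP replicate 2 was 7.84-fold below the other A549-GFP libraries, against 12.1-fold for CCNB1.

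CDC25C, the phosphatase that activates CDK1, was lower in level. It was at 11.8 TPM, at the lowest deposited value and at 11.3 TPM in A549-GFP cells, and at 11.2, 15.2 and 4.62 TPM in A549-TIPARP cells. Its fold in A549-GFP replicate 2 is therefore not given, and the same 2 libraries were its lowest. CCNB2, another cyclin B, picked once its values were known, was at 163, 9.66 and 154 TPM and at 136, 161 and 56.8 TPM in A549-GFP and A549-TIPARP cells, 16.4-fold lower in A549-GFP replicate 2 and 2.60-fold lower in A549-TIPARP replicate 3. CCNA2, the cyclin of S phase and G2, showed the widest range over the other 4 libraries, 0.759 on the log2 scale, with 76.0 TPM in A549-GFP replicate 1 and 44.9 TPM in A549-GFP replicate 3. Between the lines the 6 genes of this group ran from 0.30 for CCNA2 to 0.75 for CCNB2. FOXM1, the transcription factor of G2 genes, was 9.5-fold lower in A549-GFP replicate 2 and 2.88-fold lower in A549-TIPARP replicate 3.

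The widest gap of all stood among the mitotic and checkpoint kinases. AURKB, the kinase of the chromosomal passenger complex that corrects wrong attachments, was at 114, 4.74 and 106 TPM in A549-GFP cells and at 105, 110 and 35.2 TPM in A549-TIPARP cells. Its 4 high libraries differed by only 0.118 on the log2 scale, the narrowest range of the 32 genes, while A549-GFP replicate 2 was 23.2-fold lower and A549-TIPARP replicate 3 was 3.06-fold lower. The difference between the lines was 0.87 ± 1.05 (SE), the largest of the 32 and within its error, and it was -0.03 ± 0.14 (SE) without both low libraries. BIRC5, the survivin subunit of the same complex, was at 133, 6.97 and 121 TPM and at 114, 127 and 38.2 TPM, with the same pair of low libraries.

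PLK1, the kinase of spindle poles and mitotic exit, was at 194, 12.3 and 152 TPM in A549-GFP cells and at 148, 165 and 48.4 TPM in A549-TIPARP cells, with a difference of 0.54 ± 0.94 (SE). AURKA, the kinase of the spindle poles, was at 156, 17.3 and 125 TPM and at 106, 120 and 42.7 TPM, with a difference of 0.21 ± 0.76 (SE). Without both low libraries the AURKA difference was the lowest of the members, at -0.31 ± 0.15 (SE) with an adjusted p of 0.6 in limma. Its high A549-GFP libraries, at 156 and 125 TPM, then lay above its high A549-TIPARP libraries, at 106 and 120 TPM. How many of all genes were parted in that way was not counted. The checkpoint kinases BUB1, BUB1B and TTK, picked once their values were known, were 19.6-fold, 13.7-fold and 18.9-fold lower in A549-GFP replicate 2. BUB1B, whose product blocks CDC20 until attachment is complete, had the widest gap of A549-TIPARP replicate 3, at 3.82-fold, with 28.7, 34.8 and 8.27 TPM in A549-TIPARP cells.

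The genes of anaphase were among the highest in level. CDC20, which activates the anaphase-promoting complex and whose promoter is printed above, was at 194, 10.9 and 158 TPM in A549-GFP cells and at 154, 176 and 46.4 TPM in A549-TIPARP cells, with a difference of 0.61 ± 0.99 (SE). UBE2C, the ubiquitin-conjugating enzyme of that complex, was at 204, 12.0 and 191 TPM and at 172, 194 and 56.9 TPM, with a difference of 0.65 ± 0.99 (SE). Both were about as low in A549-GFP replicate 2, by 16.1-fold and 16.5-fold. PTTG1, the securin that holds back sister separation, was at 145, 13.8 and 177 TPM and at 147, 199 and 66.9 TPM. It was 1 of the 3 genes whose highest library was A549-TIPARP replicate 2, it was 2.56-fold lower in A549-TIPARP replicate 3, and its difference between the lines was 0.79 ± 0.86 (SE). All 10 near-identical copies looked up, PTTG2, PTTG3P and the UBE2C pseudogenes among them, were at the lowest deposited value in all 6 libraries, and how reads shared with such copies were counted is not given in the sources used here.

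Centromere and kinetochore members spanned the levels. CENPA, the histone that marks the centromere, was at 77.0, 7.49 and 59.1 TPM in A549-GFP cells and at 62.0, 68.7 and 19.7 TPM in A549-TIPARP cells, with a difference of 0.40 ± 0.81 (SE). CENPF, a large protein of the outer kinetochore, was at 34.4, 2.24 and 26.4 TPM and at 26.2, 31.8 and 10.2 TPM, with a difference of 0.56 ± 0.84 (SE). CENPE, the kinetochore motor, was the lowest in level, at 8.43 TPM, the lowest deposited value and 5.55 TPM in A549-GFP cells and at 5.66, 8.02 and 1.95 TPM in A549-TIPARP cells. All 3 had the same pair of low libraries, with CENPE near the lower limit of the tables in both.

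The spindle motors and spindle proteins had the same pair of low libraries. KIF11, the motor that pushes the poles apart, was at 58.9, 5.31 and 38.6 TPM in A549-GFP cells and at 40.2, 50.2 and 16 TPM in A549-TIPARP cells, with a difference of 0.42 ± 0.78 (SE). TPX2, which activates AURKA on the spindle, was at 145, 11.9 and 107 TPM and at 109, 131 and 36.5 TPM, with a difference of 0.48 ± 0.86 (SE). HMMR, a spindle protein also known as a hyaluronan receptor, was at 34.8, 1.53 and 23.6 TPM and at 23.6, 32.3 and 8.62 TPM, with a difference of 0.61 ± 0.92 (SE). Among these 6 genes the gap in A549-GFP replicate 2 was widest for HMMR, at 18.7-fold, and narrowest for NUSAP1, a microtubule-bundling protein, at 7.18-fold. Their differences between the lines ran from 0.36 for ASPM to 0.64 for DLGAP5, both spindle proteins. NUSAP1 also had the narrowest gap of the 6 in A549-TIPARP replicate 3, at 2.17-fold.

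Of the 4 members of the central spindle and cytokinesis, ECT2 was unlike the rest. ECT2, the exchange factor that turns on RhoA at the division plane, was at 93.4, 42.6 and 61.3 TPM in A549-GFP cells and at 67.3, 83.1 and 37.9 TPM in A549-TIPARP cells. It was only 1.78-fold lower in A549-GFP replicate 2 and 1.97-fold lower in A549-TIPARP replicate 3, the least of the 32 in both, and its difference between the lines was -0.07 ± 0.35 (SE). Its low level in A549-TIPARP replicate 3 was the lowest of the 6, where the other 31 genes had theirs in A549-GFP replicate 2. KIF20A, the motor that carries the passenger complex to the midzone, was at 29.3, 1.49 and 19.8 TPM and at 22.8, 26.7 and 8.42 TPM, with a difference of 0.66 ± 0.86 (SE). PRC1, which bundles midzone microtubules, was at 150, 10.1 and 104 TPM and at 110, 130 and 41.4 TPM, with a difference of 0.60 ± 0.89 (SE). KIF23, the centralspindlin motor, was 6.11-fold lower in A549-GFP replicate 2, after ECT2 the smallest fold of the 30 members that had one.

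Chromosome structure was covered by 3 members. TOP2A, which untangles sister chromatids, was at 144, 9.92 and 90.2 TPM in A549-GFP cells and at 93.8, 116 and 37.0 TPM in A549-TIPARP cells, with a difference of 0.52 ± 0.87 (SE). NCAPG, a condensin I subunit, was at 29.9, 2.46 and 23.7 TPM and at 22.8, 29.6 and 6.90 TPM, with a difference of 0.37 ± 0.82 (SE). MKI67, the Ki-67 protein that coats mitotic chromosomes and marks cycling cells, was at 64.4, 3.31 and 42.0 TPM and at 42.8, 47.6 and 13.8 TPM, named because its promoter is printed above. It was 15.7-fold lower in A549-GFP replicate 2 and 3.28-fold lower in A549-TIPARP replicate 3, and the lines overlapped for all 3 genes.

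**Figure D4:**
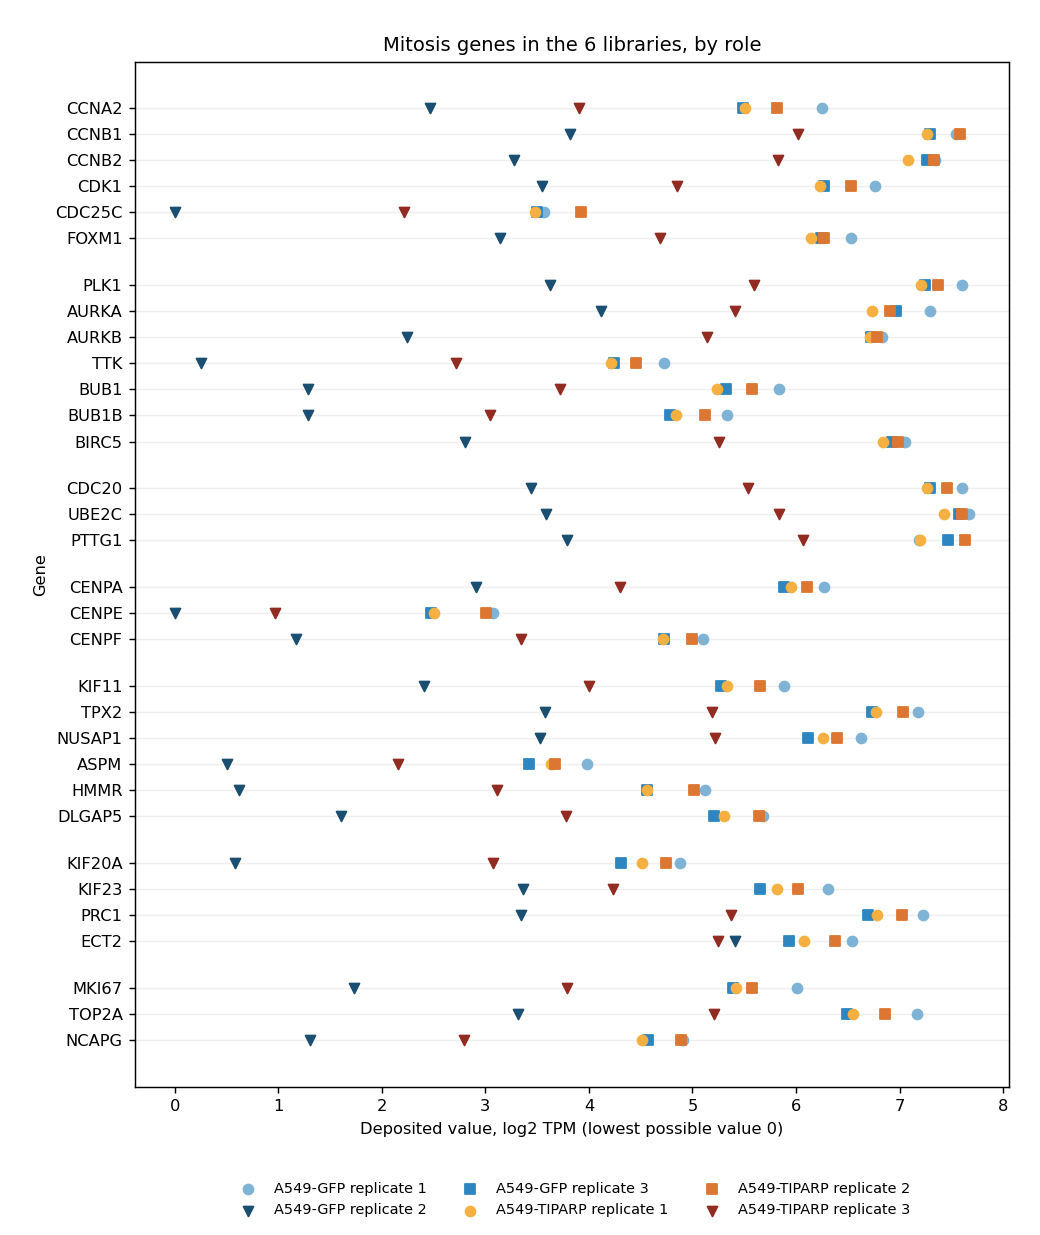
Deposited log2 TPM of the 32 mitosis genes in the 6 libraries, grouped by role; 1 marker is 1 library, and 0 is the lowest value in the tables. A549-GFP replicate 2 (dark blue triangles) lies lowest and A549-TIPARP replicate 3 (dark red triangles) next for 31 genes, with ECT2 reversed, and the other 4 libraries lie within 0.759 of each other for every gene.

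Across the 32 genes, the deviations of the pair of low libraries ran together, with Pearson's r = 0.598 and Spearman's rho = 0.383 over genes of the same libraries, which are not independent replicates. ECT2 lay far from the other members in this, and over all 13181 genes Pearson's r was 0.621. The deviation in A549-TIPARP replicate 3 was at the median 0.459 of that in A549-GFP replicate 2. More than 2-fold lower in both libraries were 259 genes, which was 48.6% of those lower in A549-GFP replicate 2 and 88.4% of those lower in A549-TIPARP replicate 3. Over the 4 other libraries the members' range was 0.515 on the log2 scale at the median.

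Other genes of the cell cycle were read from 9 lists by function that share no gene with the 32. In none of the 9 lists did a gene pass an adjusted or unadjusted p of 0.05 or a 2-fold difference between the lines. The within-line pattern, however, was not the same in all lists. Of 29 kinetochore and checkpoint genes 21 were more than 2-fold lower in A549-GFP replicate 2, with a median deviation of -2.20 there and -1.27 in A549-TIPARP replicate 3. NUF2, a microtubule-binding subunit of the NDC80 complex, was the lowest at -3.51 in the former, and MIS12, of the complex that ties NDC80 to the centromere, was higher there at 0.93. Between the lines this list ran from -0.42 for MIS12 to 0.64 for SPC24, a partner of NUF2, with a median of 0.18 that was -0.49 without A549-GFP replicate 2.

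Of 10 other mitotic kinesins 9 were more than 2-fold lower in A549-GFP replicate 2, with a median of -2.43, and KIF2A, which acts in interphase too, was the exception at -0.67. They ran from -0.02 for KIF20B to 0.83 for KIFC1 between the lines, and their median of 0.33 was -0.48 without A549-GFP replicate 2. Of 13 mitotic entry kinases and phosphatases 10 were more than 2-fold lower, with a median of -1.44. GTSE1 was lowest at -3.64, and the exceptions were the phosphatase CDC25B and the PP2A inhibitors ENSA and ARPP19 at 0.23, 0.06 and 0.48. Their differences between the lines ran from -0.31 for CDC25B to 0.63 for the centrosome kinase NEK2, with a median of 0.05 that was -0.49 without that library. Of 8 cytokinesis genes 4 were more than 2-fold lower, ANLN, RACGAP1, CIT and CEP55, while RHOA, MYH9, CHMP4B and PDCD6IP lay between -0.10 and 0.47. These 4 serve many processes besides division, and what that has to do with their values was not tested. Between the lines the 8 ran from -0.22 for PDCD6IP to 0.58 for CEP55, and the median of 0.19 was -0.20 without it.

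The anaphase-promoting complex differed in values from its partners among the members. On the log2(TPM + 1) scale 1 of 17 genes was more than 2-fold lower in A549-GFP replicate 2, against 4.04% of all genes. It was UBE2S, the enzyme that works beside UBE2C, at -1.87, and the median was -0.15. The 14 subunits of the complex proper, a split made after the values were seen, had a median of 0.11 in A549-GFP replicate 2 and -0.38 in A549-TIPARP replicate 3. On the log2(TPM + 1) scale 0 of 14 were more than 2-fold lower in either, against 4.04% and 2.22% of all genes. ANAPC15 came nearest, at -0.98 and -0.94, and on the deposited scale it was 2.03-fold and 1.98-fold lower. ANAPC13 was more than 2-fold higher in A549-GFP replicate 2, at 1.2, as were 12.6% of all genes. The members CDC20 and UBE2C, which act with the complex, lay at -3.89 and -3.94 in the same library. Between the lines the 17 genes ran from -0.32 for CDC26 to 0.17 for UBE2S, and without A549-GFP replicate 2 UBE2S was the lowest of the list at -0.45.

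Condensin and cohesin genes were mixed. Of 19 genes 10 were more than 2-fold lower in A549-GFP replicate 2, with a median of -1.22, and the lowest was CDCA5, the cohesin protector sororin, at -3.62. The 5 ring and STAG subunits of cohesin, again split off after the values were seen, had a median of -0.32 there and of -0.52 in A549-TIPARP replicate 3, with 0 of 5 more than 2-fold lower in either. The 7 other cohesin genes had medians of -2.18 and -1.20: CDCA5, the shugoshins SGO1 and SGO2 and the separase gene ESPL1 were more than 2-fold lower in both libraries, and WAPL, PDS5A and PDS5B in neither. Condensin subunits other than the member NCAPG were more than 2-fold lower in 6 of 7 in each of the libraries, with medians of -1.49 and -1.20, and NCAPH2 was the exception in both. Between the lines the 19 genes ran from -0.35 for SMC1A to 0.56 for CDCA5, with a median of -0.10. Without A549-GFP replicate 2 the median was -0.40, CDCA5 was at -0.65 and 0 of 19 were higher in A549-TIPARP cells, while the median was 0.19 without A549-GFP replicate 1 and 0.21 without A549-TIPARP replicate 3.

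S phase genes, which act before mitosis, were low in the same libraries. Of 14 genes 13 were more than 2-fold lower in A549-GFP replicate 2, with a median of -2.34, and 10 were in A549-TIPARP replicate 3, with a median of -1.36. These counts are on the log2(TPM + 1) scale. CCNE2, at -0.84 in A549-TIPARP replicate 3, was 2.3-fold lower there on the deposited scale. RRM2, the ribonucleotide reductase subunit that makes DNA precursors, was lowest at -3.59 and PCNA, the replication clamp, least low at -0.90. A CHR was found in the promoters of 1 of 11 S phase genes with an entry, or 9.09%, and of 5 of 17 genes of the anaphase-promoting complex list, or 29.4%, beside the 76.9% of the mitosis genes. In the other lists the share was 80.0% for the kinesins, 72.7% for the entry kinases and phosphatases, 58.8% for condensin and cohesin, 56.0% for the kinetochore, 42.9% for cytokinesis, 40% for DREAM and MuvB and 14.3% for the CDK inhibitors. With only the bases before the start searched, the share was 65.4% for the mitosis genes and 17.2% for all genes, and among the lists it was 63.6% for the entry kinases and phosphatases, 42.9% for cytokinesis, 40% for the kinesins, 30% for DREAM and MuvB, 29.4% for condensin and cohesin, 28% for the kinetochore, 23.5% for the anaphase-promoting complex, 14.3% for the CDK inhibitors and 9.09% for S phase. The S phase genes ran between the lines from -0.12 for PCNA to 0.65 for CDT1, and their median of 0.21 was -0.56 without A549-GFP replicate 2.

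The regulators that bind CHR and E2F sites were mixed. Of 11 DREAM and MuvB genes 4 were more than 2-fold lower in A549-GFP replicate 2, LIN9, MYBL2, TFDP1 and RBL1, and the median was 0.14. In A549-TIPARP replicate 3 their median was -0.52, against -0.05 for all genes. On the log2(TPM + 1) scale 2 of 11 were more than 2-fold lower there, against 2.22% of all genes. RBL1, at -0.90, was 2.09-fold lower on the deposited scale. MYBL2, the B-Myb factor of dividing cells, was at 136, 7.11 and 104 TPM in A549-GFP cells and at 106, 112 and 35.5 TPM in A549-TIPARP cells, as low in the same libraries as the members. RBL2, the p130 subunit of DREAM, was at 14.3, 24.1 and 11.9 TPM and at 12.8, 16.3 and 16.2 TPM, with its highest library where the members had their lowest. Its deviation in that library was 0.84, where all genes had a median of 0.34 and a 95th percentile of 1.36. Between the lines the list ran from -0.38 for LIN54 to 0.64 for MYBL2, with a median of -0.09. Without A549-GFP replicate 2 MYBL2 was at -0.65 and the median at -0.28.

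CDK inhibitors, which stop the cycle, went in both directions. Of 8 genes 5 passed the filter. CDKN1A, the p21 inhibitor that p53 switches on, was at 62.8, 363 and 65.6 TPM in A549-GFP cells and at 65.7, 74.7 and 70.1 TPM in A549-TIPARP cells. It was thus high in A549-GFP replicate 2 alone, by 2.48 on the log2(TPM + 1) scale, and level in A549-TIPARP replicate 3, where the mitosis genes were low too. CDKN1B, the p27 inhibitor, was at 62.4, 89.4 and 54.6 TPM and at 58.4, 52.3 and 77.1 TPM, higher in both low libraries than in the others. Its deviation in A549-GFP replicate 2 was 0.61, between the 25th and 75th percentiles of all genes there, -0.06 and 0.72. In A549-TIPARP replicate 3 it was 0.47, where the 75th and 95th percentiles were 0.18 and 0.63. CDKN3, a phosphatase of cyclin-dependent kinases, lay at -2.70 in A549-GFP replicate 2 and -1.33 in A549-TIPARP replicate 3. Their differences between the lines ran from -0.70 for CDKN1A to 0.29 for CDKN3, and without A549-GFP replicate 2 these genes were at 0.12 and -0.61. What these values have to do with the mitosis genes was not tested.

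**Figure D5:**
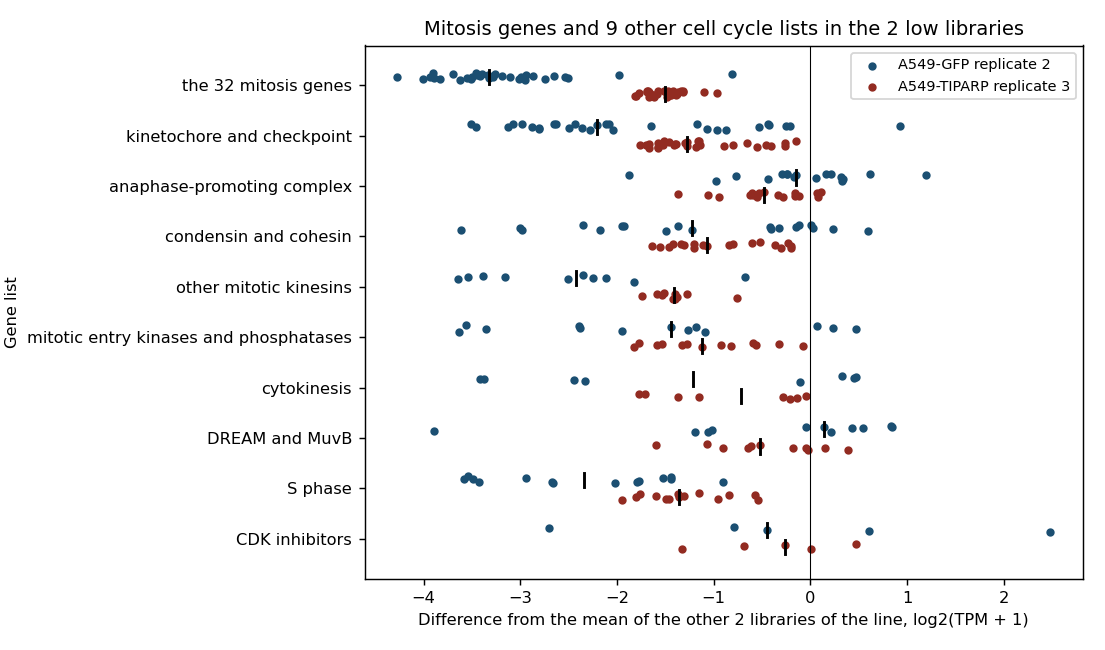
Deviation from the mean of the other 2 libraries of the line, on the log2(TPM + 1) scale, for the 32 mitosis genes and the genes of 9 other lists in A549-GFP replicate 2 (blue) and A549-TIPARP replicate 3 (red); points are genes and black ticks medians. The mitosis genes lie around -3.33 and -1.51, the anaphase-promoting complex list around -0.15 and -0.48, and the single point far right is CDKN1A at 2.48.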

How the data were processed

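RNA of 6 samples was made into stranded mRNA libraries and sequenced with paired-end reads by a service provider. The authors aligned to the hg38 transcriptome with Strand NGS at default parameters and deposited the log2 TPM of each gene, 1 table a library. Its version, the annotation release and how multi-mapped reads were handled are not given in the sources used here. The lowest deposited log2 value is 0, since TPM below 1 was set to 1. No read counts were used.

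Samples were grouped and numbered from their titles; the numbers in the file names differ and what they mean is not known. Genes above 2 TPM in at least 1 of 6 libraries were kept. The 13181 genes were fitted on log2(TPM + 1) with limma 3.58.1 (R 4.3.3), using a variance trend, no block and Benjamini-Hochberg adjustment; the fit was tested on simulated data. The 2-fold count between the lines uses the deposited log2 scale. p-values measure the spread between these libraries, which may be in part technical. A library's deviation is its log2(TPM + 1) minus the mean of the other 2 of its line. Counts of genes more than 2-fold or 4-fold lower or higher in 1 library use this deviation. Folds of 1 library given as numbers use the deposited scale.

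Members, lists and tests were chosen with earlier results of these data known. In each of 7 role groups the text names the member highest in level and those with the highest and lowest difference between lines on the deposited log2 scale; in other lists the highest and lowest difference on log2(TPM + 1). Genes named otherwise were picked once their values were known. Alternatives were other pseudocounts, filters, rescaling, no trend, a replicate block and leaving out libraries. Promoters were read from RefSeq (GRCh38.p14) and gene overlaps from GENCODE 44.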

Additional observations from a re-analysis of the deposited data

How the results depend on the processing

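The count of members past an adjusted or unadjusted p of 0.05 stayed at 0 under every alternative run, in limma, with all of the members tested. With libraries left out in turn, including both low libraries together, the members past 2-fold ranged from 0 to 27, those with a higher mean in A549-TIPARP cells from 0 to 32, the median difference of the CDK inhibitors from -0.12 to 0.18, of DREAM and MuvB from -0.28 to -0.03, of S phase from -0.56 to 0.72, of the anaphase-promoting complex from -0.17 to 0.04, of condensin and cohesin from -0.40 to 0.21, of cytokinesis from -0.20 to 0.46, of the kinetochore from -0.49 to 0.68, of the entry kinases and phosphatases from -0.49 to 0.41 and of the kinesins from -0.48 to 0.86, and all genes past adjusted p from 1 to 98; that last count was 1 with no filter. The differences of the named members turned sign in leave-outs and ranged from -0.46 to 1.36 for CCNB1, from -0.64 to 0.92 for CDK1, from -0.28 to 1.06 for CDC25C, from -0.69 to 1.25 for PLK1, from -0.77 to 0.78 for AURKA, from -0.56 to 1.61 for AURKB, from -0.69 to 1.33 for CDC20, from -0.66 to 1.33 for UBE2C, from -0.36 to 1.44 for PTTG1, from -0.61 to 0.99 for CENPA, from -0.48 to 0.64 for CENPE, from -0.53 to 1.19 for CENPF, from -0.56 to 1.06 for KIF11, from -0.62 to 1.13 for TPX2, from -0.58 to 1.33 for HMMR, from -0.45 to 1.35 for KIF20A, from -0.56 to 1.32 for PRC1, from -0.34 to 0.26 for ECT2, from -0.61 to 1.25 for TOP2A and from -0.63 to 0.96 for NCAPG. Other pseudocounts and rescaling gave members' medians of 0.56 to 0.57. The experiment numbers of the titles, whose meaning as pairs is not known, did not group the libraries by their values: across genes, same-numbered libraries had deviations with r of 0.452, -0.516 and -0.380, and those of the others ranged from -0.645 to 0.621. With a replicate block 0 members and 1 gene of all passed adjusted p. With 3 libraries per line, 1 of them far from the others, the standard errors of the members allow no statement on differences of the size seen, and TPM does not show depth.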

Other observations

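In A549-GFP replicate 2, where the mitosis genes were lowest, 1658 of 13181 genes (12.6%) were more than 2-fold above the mean of the other A549-GFP libraries, and 533 more than 2-fold below. The highest was G0S2, a gene named for the switch from G0 to G1 and picked once its value was known, at 4.57 on the log2(TPM + 1) scale. In A549-TIPARP replicate 3 there were 159 genes (1.21%) above and 293 below.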
